A study of Mus musculus with 2 samples.

Results

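Expression of 10 genes of innate immune sensing was examined in bone marrow stem and progenitor cells of mice with a myelodysplastic syndrome (MDS) after decitabine or vehicle. The genes were S100a8, S100a9, Tlr2, Tlr4, Tirap, Myd88, Irak4, Irak1, Traf6 and Nlrp3, taken by name as the innate signalling axis implicated in MDS. They made up 10 of the 34786 genes on the array and 17 of its 55680 probes. Every non-control probe whose gene name, or the gene of whose transcript, was on the list was included, and each was read on both arrays.

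There were 2 groups with 1 array each. The DAC group was treated with decitabine, a deoxycytidine analogue that traps DNA methyltransferases and lowers DNA methylation. The PBS group received phosphate-buffered saline. Both groups were C57BL/6 mice carrying transplanted Tet2KD/KD Ezh2Δ/Δ MDS as secondary recipients, sampled 10 weeks after transplantation and 7 weeks after treatment. Tet2 codes for a dioxygenase acting on methylated cytosine, and Ezh2 for the histone methyltransferase of Polycomb repressive complex 2. Both genes were altered in the PBS cells too, and the comparison holds no array of wild-type cells. The sorted population was LSK (Lineage- Sca-1+ c-Kit+), which holds haematopoietic stem cells and multipotent progenitors. The number of mice behind each array, the dose schedule, the driver of the Ezh2 deletion and the host cells in the sorted fraction are not stated in the labels.

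S100A8 and S100A9 form the calprotectin dimer, an alarmin that is abundant in neutrophils and monocytes and is sensed by Toll-like receptor 4. Toll-like receptors 2 and 4 use TIRAP to bring MyD88 to the membrane, where MyD88 assembles IRAK4 and IRAK1 and passes the signal to the ubiquitin ligase TRAF6 and on to NF-κB. NLRP3 is the sensor of an inflammasome that activates caspase-1, and in human MDS S100A9 and NLRP3 have been linked to inflammatory death of marrow cells.

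With 1 array per group no test was possible and no p-value is given, so each difference describes these 2 arrays. A difference is the log2 signal on the DAC array minus that on the PBS array, after each array was scaled to its own 75th percentile, and it was read against 2-fold. The error beside it comes from spots of 1 probe printed several times on each array. It covers variation between spots within an array. It does not cover animals, sorting, RNA extraction, amplification or labelling, nor differences in hybridisation and scanning between the arrays. For a probe printed once, this SD of the log2 difference was 0.09 at high, 0.15 at middle and 0.30 at low signal, from 65, 64 and 64 probes printed 10 times. The scanner software's own error model gave 0.09 to 0.32 for the probes of the 10 genes measured on both arrays.

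Of the 10 genes, 8 were measured on both arrays. Nlrp3 was higher in DAC cells by 2-fold or more (1 of 8), none was lower by as much, and 7 lay within 2-fold. Over all 18211 genes measured, 1824 were higher in DAC cells by 2-fold or more (10.0%), and 1245 were lower by as much (6.84%). The median log2 difference was 0.20 over the 8 genes and 0.02 over all measured genes, with 4 of the 8 positive and 4 negative. Tlr2 and Tlr4 passed the background call on the DAC array alone, which held for 3282 of all 34786 genes (9.43%), and none of the 10 was so on the PBS array only, which held for 977 (2.81%). By probe, 12 of 17 passed it on both arrays, 2 on the DAC array alone and 3 on neither.

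**Figure D1:**
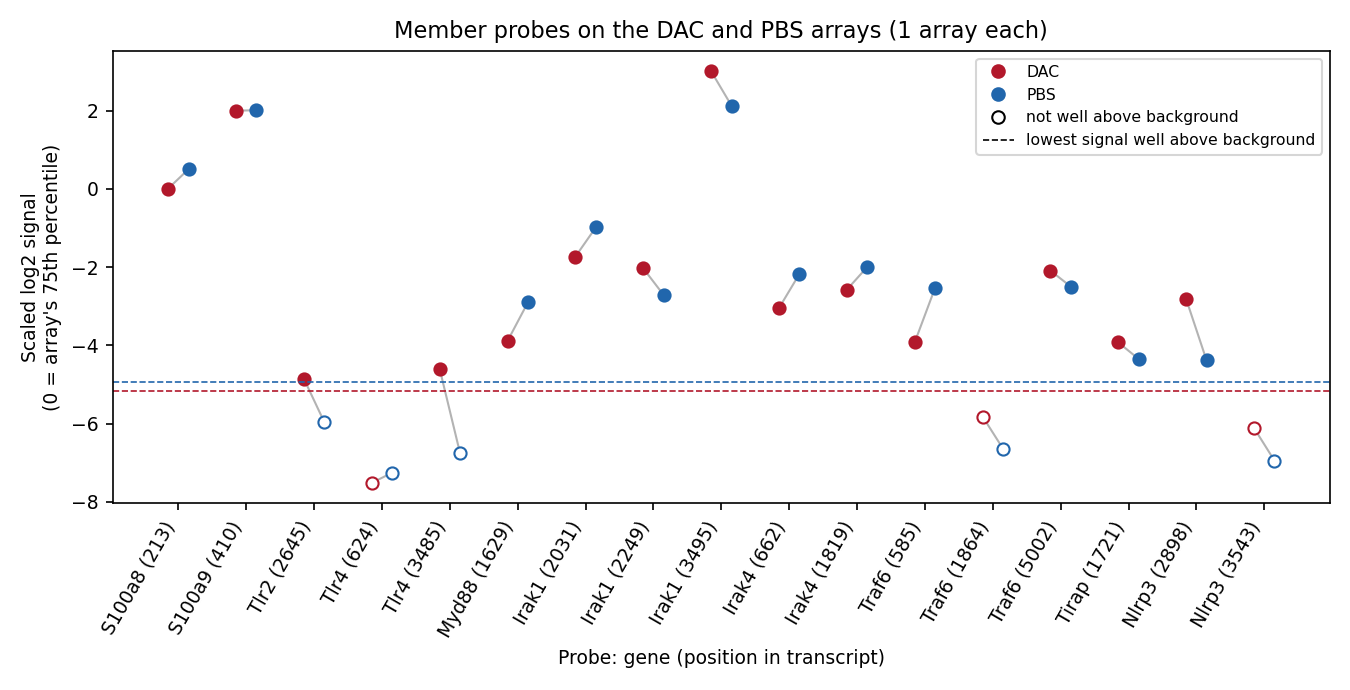
Scaled log2 signal of each of the 17 probes on the DAC array (red, left of each pair) and the PBS array (blue, right), 1 array each, with 0 at the array's 75th percentile. Open circles were not well above background and dashed lines mark the lowest signal called well above background; the Nlrp3 probe at 2898 is 1.56 higher in DAC cells, and the Tlr2 probe and the Tlr4 probe at 3485 are filled on the DAC array only.

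The whole arrays set the limits for the dim probes. The share of probes that passed the background call was 56.8% in DAC cells and 48.5% in PBS cells, and the intensity at the 75th percentile was 813 in DAC cells and 618 in PBS cells. No spot was saturated. Of 10 stem and LSK marker genes, 9 were measured on both arrays, and the genes for the sort markers c-Kit and Sca-1, Kit and Ly6a, differed by log2 0.12 and 0.07. Procr and Hlf, markers of stem cells within that fraction, were higher in DAC cells at 1.65 and 2.49, and Slamf1 was on neither array.

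S100a8 encodes one subunit of calprotectin. Its single probe starts at base 213 of the transcript and lies at chr3:90473778-90473837 (mm9, plus strand). Its sequence is shown because the reading of the gene rests on it alone.
S100a8 probe at 213: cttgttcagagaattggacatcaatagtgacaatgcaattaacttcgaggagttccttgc

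The S100a8 probe read an intensity of 818 in DAC cells and 876 in PBS cells. After scaling, the log2 difference was -0.49 ± 0.09 (SD over spots), or 1.41-fold lower in DAC cells. S100a8 was thus lower in DAC cells by more than the spread between spots but stayed within 2-fold, and 19.5% of all measured genes had a lower difference.

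S100a9 encodes the partner subunit, and its probe lies at chr3:90496573-90496632 (mm9, minus strand), from base 410 of the transcript. It read an intensity of 3246 in DAC cells and 2490 in PBS cells. The log2 difference after scaling was -0.01 ± 0.09 (SD over spots). The brighter DAC reading was thus no larger than the gap between the arrays as a whole, and the sign of S100a9 flips with the scaling, from -0.22 to 0.11 over the other ways of processing. For a gene with 1 probe printed once, 7 of the 12 other ways can move the value. Under those 7, S100a8 lay between -0.70 and -0.46.

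Because calprotectin is made in quantity by neutrophils and monocytes, markers of those cells were read beside it. In bulk RNA of sorted cells, fewer cells of a type and less RNA per cell cannot be told apart. Of 15 mature neutrophil markers, 10 were measured on both arrays. The lactoferrin gene Ltf and the peptidyl arginine deiminase gene Padi4 were at least 2-fold higher in DAC cells, with log2 differences of 1.47 and 1.65. The scaled PBS signal of Ltf, -4.26, lay near the lowest PBS signal called well above background, -4.93, and its difference was not read under other background corrections. The granule genes Ngp and Lcn2 were at least 2-fold lower, at -1.59 and -1.25. Retnlg was on the DAC array only, with a bound of at least 2.06-fold, and Mmp8, Mmp9, Fpr1 and Itgb2l were on neither array. The summed scaled signal of the list, in units of the 75th percentile, was 33.4 in DAC cells and 29.8 in PBS cells. Without Trem1 it was 2.49 in DAC cells and 3.67 in PBS cells, so the direction of the sum turns with that probe. Such a sum adds probes whose signals share no common scale and gives no amount of neutrophil RNA.

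Of 13 monocyte and macrophage markers, 12 had a probe and 6 were measured on both arrays. By brightest probe, Cx3cr1 was at least 2-fold lower in DAC cells, at -1.10, and no marker measured on both arrays was at least 2-fold higher. Dimmer probes of 2 markers did pass 2-fold. The 3 measured Csf1r probes ran from 0.02, the brightest, to 2.27. The 2 measured F13a1 probes read 0.76, the brighter, and -1.05. Adgre1, Lgals3, C1qa and Ccr2 were detected in DAC cells alone, with bounds of at least 4.97-fold, 3.84-fold, 1.31-fold and 1.03-fold, and Ms4a7 and Mrc1 were on neither. The summed scaled signal was 8.35 in DAC cells and 7.47 in PBS cells, and without Csf1r it was 3.12 in DAC cells and 2.31 in PBS cells. Of the measured markers, 6 neutrophil genes were positive and 4 negative, and 4 monocyte genes were positive and 2 negative. Their part in the S100a8 and S100a9 readings was not tested.

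Tlr2 encodes a receptor for bacterial lipoproteins. Its probe, from base 2645 of the transcript at chr3:83640344-83640403 (mm9, minus strand), was printed 10 times on each array. The last 30 bases are shown, with the hexamer AATAAA, known as a polyadenylation signal, in capitals.
Tlr2 probe at 2645, last 30 bases: gggtaaatctgagaactgcAATAAAgtcct

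The 10 Tlr2 spots in DAC cells read intensities from 23.0 to 36.7 with a median of 28.1. The 10 spots in PBS cells read 4.36 to 16.7 with a median of 10.2. The spots of the 2 arrays did not overlap, also after scaling, but 6 of 10 were called well above background in DAC cells and 0 of 10 in PBS cells. The measured log2 difference was 1.11 ± 0.19 (SE over its own spots), of which the PBS side is only a bound, so Tlr2 was at least 1.05-fold higher in DAC cells.

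Tlr4 encodes the receptor for lipopolysaccharide, which also senses calprotectin, and it had 2 probes. The probe from base 3485 of the transcript, at chr4:66503470-66503529 (mm9, plus strand), was printed 2 times. Its 2 spots read intensities of 21.7 and 51.6 in DAC cells, against 6.08 and 5.40 in PBS cells. Only 1 of 2 spots was well above background in DAC cells and 0 of 2 in PBS cells, and the DAC spots differed widely. The measured log2 difference was 2.15 ± 0.63 (SE over its own spots), and the bound was at least 1.25-fold higher in DAC cells.

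The other Tlr4 probe, from base 624 of another transcript, lies 86547 bases further on at chr4:66590077-66590136. It read intensities of 4.45 in DAC cells and 4.05 in PBS cells and was above background on neither array. The last 30 bases of both probes are shown because they lie so far apart.
Tlr4 probe at 3485, last 30 bases: taacatccttttccttcatcattctcattt
Tlr4 probe at 624, last 30 bases: acgaggcacgatattaatgctgtggattga

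Both receptor readings lay near the limit of detection. When at least 80% of the spots of a probe had to be well above background, a limit chosen after seeing the data, Tlr2 and Tlr4 were on neither array. With normexp background correction their measured log2 differences were -0.02 and 0.12.

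**Figure D2:**
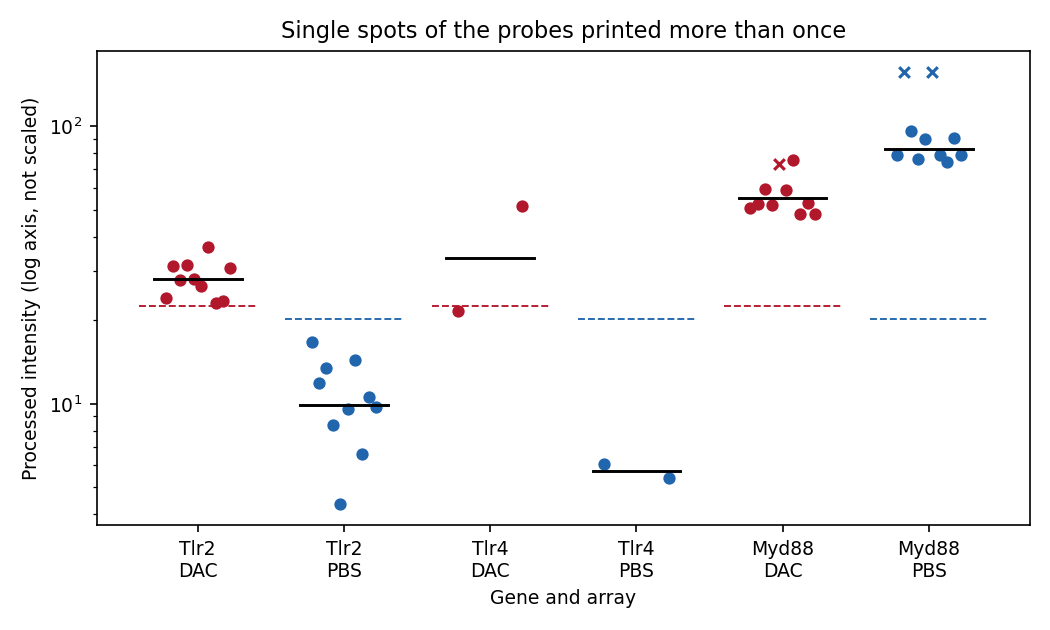
Processed intensity (log axis, not scaled between arrays) of every spot of the Tlr2, Tlr4 and Myd88 probes printed more than once, DAC array left of PBS array for each gene. Bars are geometric means of the kept spots, crosses are spots called outlying and left out, and dashed lines mark the lowest intensity well above background; all 10 PBS spots of Tlr2 lie under their line, and the 2 crossed PBS spots of Myd88 lie near 157.

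Tirap encodes the adaptor that bridges the receptors to MyD88. Its probe, from base 1721 of the transcript at chr9:34994936-34994995 (mm9, minus strand), read intensities of 53.5 in DAC cells and 30.3 in PBS cells. The log2 difference was 0.42 ± 0.30 (SD over spots), within 2-fold. That is little more than the spread between spots. Over the 7 other ways of processing that moved it, the Tirap difference ran from -0.06 to 0.33 and was negative under 2. Set against the median of all genes under the same processing, it was positive under all 7.

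Myd88 encodes the adaptor shared by most Toll-like receptors and the interleukin 1 receptors. Its probe, from base 1629 of the transcript at chr9:119245322-119245381 (mm9, minus strand), was printed 10 times on each array, and its last 30 bases are shown because it has the most spots among the genes measured on both arrays.
Myd88 probe at 1629, last 30 bases: tctaccatagaggcaatgtcatggtccctc

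The 9 Myd88 spots kept in DAC cells read intensities from 48.4 to 75.5 with a median of 52.5. The 8 spots kept in PBS cells read 74.5 to 96.2 with a median of 78.9. After scaling, the kept spots of the arrays did not overlap, with the highest DAC spot at log2 -3.43 and the lowest PBS spot at -3.05. The log2 difference was -0.99 ± 0.08 (SE over its own spots), or 1.98-fold lower in DAC cells, which lies just inside 2-fold.

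The side of 2-fold on which Myd88 falls depends on the processing. The scanner software called 1 DAC spot of 73.2 and 2 PBS spots of 156.5 and 156.7 outlying among the spots of this probe, and these were left out. With them kept, an alternative chosen after seeing the data, the log2 difference was -1.13. Over the 8 other ways of processing that moved it, Myd88 was negative each time, from -1.37 to -0.65, and past 2-fold in 6. As reported, 7.02% of measured genes had a lower difference.

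Irak4 encodes the kinase that MyD88 recruits first, and both of its probes were measured. The probe from base 662 of the transcript, at chr15:94384447-94385174 (mm9, plus strand), spans 728 bases of the genome with its 60 bases.
Irak4 probe at 662: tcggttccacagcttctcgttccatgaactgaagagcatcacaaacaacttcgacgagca

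That Irak4 probe read intensities of 98.5 in DAC cells and 137 in PBS cells, a log2 difference of -0.87 ± 0.30 (SD over spots). The probe from base 1819, at chr15:94397743-94397802, read 136 in DAC cells and 155 in PBS cells, a log2 difference of -0.58 ± 0.30 (SD over spots). Both probes of Irak4 were lower in DAC cells and within 2-fold as reported. The probe at 662 passed 2-fold under 5 other scalings: the 75th percentile over all probes (-1.07), median centring (-1.03), quantile normalization (-1.14), loess (-1.09) and the series matrix (-1.07). The brighter probe at 1819 stands for the gene, which ran from -0.81 to -0.48 over the 8 other ways of processing that moved it.

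Irak1 encodes the kinase that IRAK4 phosphorylates, and its 3 probes on chromosome X did not go the same way. They are shown because they read different stretches of the gene. The transcripts they are listed for overlap: the probe at 2031 shares NM_001177974 with the probe at 2249 and NM_008363 with the probe at 3495. The capitals mark a TGA that ends the open frame of the probe at 2249.
Irak1 probe at 2031: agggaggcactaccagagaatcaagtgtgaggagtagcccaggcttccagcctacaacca
Irak1 probe at 2249: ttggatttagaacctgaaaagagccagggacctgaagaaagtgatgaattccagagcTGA
Irak1 probe at 3495, last 30 bases: ctcttaagtgtccacccaaaactcaggccc

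The Irak1 probe at 2031, at chrX:71262475-71262534 (mm9, minus strand), read intensities of 245 in DAC cells and 312 in PBS cells, a log2 difference of -0.74 ± 0.15 (SD over spots). The probe at 2249, at chrX:71260779-71260838, read 199 in DAC cells and 94.2 in PBS cells, a difference of 0.68 ± 0.30. The probe at 3495, at chrX:71259533-71259592, read 6525 in DAC cells and 2697 in PBS cells, a difference of 0.88 ± 0.09. The upstream probe was thus lower in DAC cells and both downstream probes were higher, each by more than its spot SD. The probe at 3495 is the brightest and stands for the gene, so Irak1 counted as 1.84-fold higher and within 2-fold. It passed 2-fold under quantile normalization, at 1.02, and loess, at 1.03, and the mean over the 3 probes was 0.27.

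Traf6 encodes the ubiquitin ligase that activates NF-κB signalling downstream of the kinases. Its probes also differed in direction, and 2 of its 3 were measured. The probe at 585, at chr2:101519206-101519265 (mm9, plus strand), is listed for the cDNA AK009110 and for no RefSeq transcript. The probe at 5002, at chr2:101540660-101540719, is listed for the RefSeq transcript NM_009424.
Traf6 probe at 585, last 30 bases: tgggttttcccgtcccttccagcttaaatt
Traf6 probe at 5002, last 30 bases: tttgaagtgcttttctctctttttctgtcg

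The Traf6 probe at 5002 read intensities of 191 in DAC cells and 109 in PBS cells, a log2 difference of 0.41 ± 0.30 (SD over spots). The probe at 585 read 53.7 in DAC cells and 107 in PBS cells, a difference of -1.39 ± 0.30, or 2.62-fold lower in DAC cells. The probe of the RefSeq transcript and that of the cDNA thus read in opposite directions, and only the cDNA probe passed 2-fold. That call is lost with normexp (-0.90) and with no background subtraction (-0.91), where the probe at 5002 was at 0.20 and 0.17. Under the other scalings the probe at 5002 lay between 0.18, with quantile normalization, and 0.25, with median centring. The spot SD was computed only for the values as reported. The probe at 1864, at chr2:101526308-101526367, read 14.4 in DAC cells and 6.20 in PBS cells and was above background on neither array. The brightest probe, at 5002, stands for the gene, and the mean over the 2 measured probes was -0.49.

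Opposite directions between probes of a gene were common on these arrays. Of the 10 genes, 3 had more than 1 measured probe, and 2 of these 3, Irak1 and Traf6, had probes of opposite direction. Of the 4655 genes with more than 1 measured probe on the whole array, 2202 did (47.3%).

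**Figure D3:**
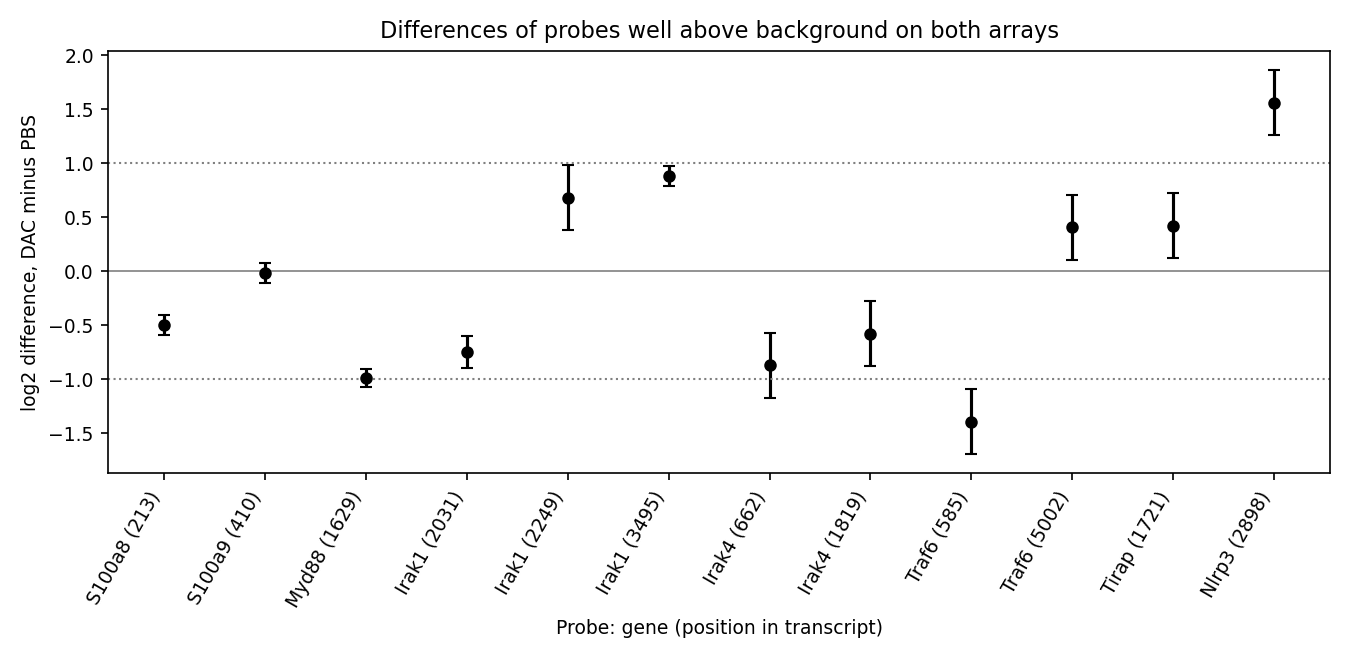
Log2 difference, DAC minus PBS, of the 12 probes that passed the background call on both arrays, 1 array each. Error bars are the SD over spots, or for Myd88 the SE over its own spots, and dotted lines mark 2-fold; the Nlrp3 probe at 2898 (1.56) lies above the upper line, the Traf6 probe at 585 (-1.39) below the lower line, and the probes of Irak1 and of Traf6 fall on both sides of 0.

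Nlrp3 encodes the inflammasome sensor and had the difference farthest from 0, as reported, of the 8 genes measured on both arrays. Irak1 and Myd88 lay farther from 0 with normexp and with no background subtraction, and Myd88 with quantile normalization. The probe from base 2898 of the transcript lies at chr11:59378554-59378613 (mm9, plus strand), and its sequence is shown because the only 2-fold gene difference rests on it.
Nlrp3 probe at 2898: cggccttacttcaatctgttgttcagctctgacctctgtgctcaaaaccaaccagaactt

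This Nlrp3 probe read intensities of 115 in DAC cells and 29.6 in PBS cells. The log2 difference was 1.56 ± 0.30 (SD over spots), or 2.95-fold higher in DAC cells, and 96.0% of measured genes had a lower difference. The other probe, from base 3543 at chr11:59379981-59380040, read 11.7 in DAC cells and 5.02 in PBS cells and was above background on neither array, so it neither repeats nor contradicts the reading.

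The size of the Nlrp3 difference depends on the background correction. The PBS reading of 29.6 lies near the lowest PBS intensity called well above background, 20.3. With normexp the log2 difference was 0.55 and with no background subtraction 0.56, both within 2-fold. Nlrp3 was positive under the 7 other ways of processing that moved it and past 2-fold in 5 of them.

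**Figure D4:**
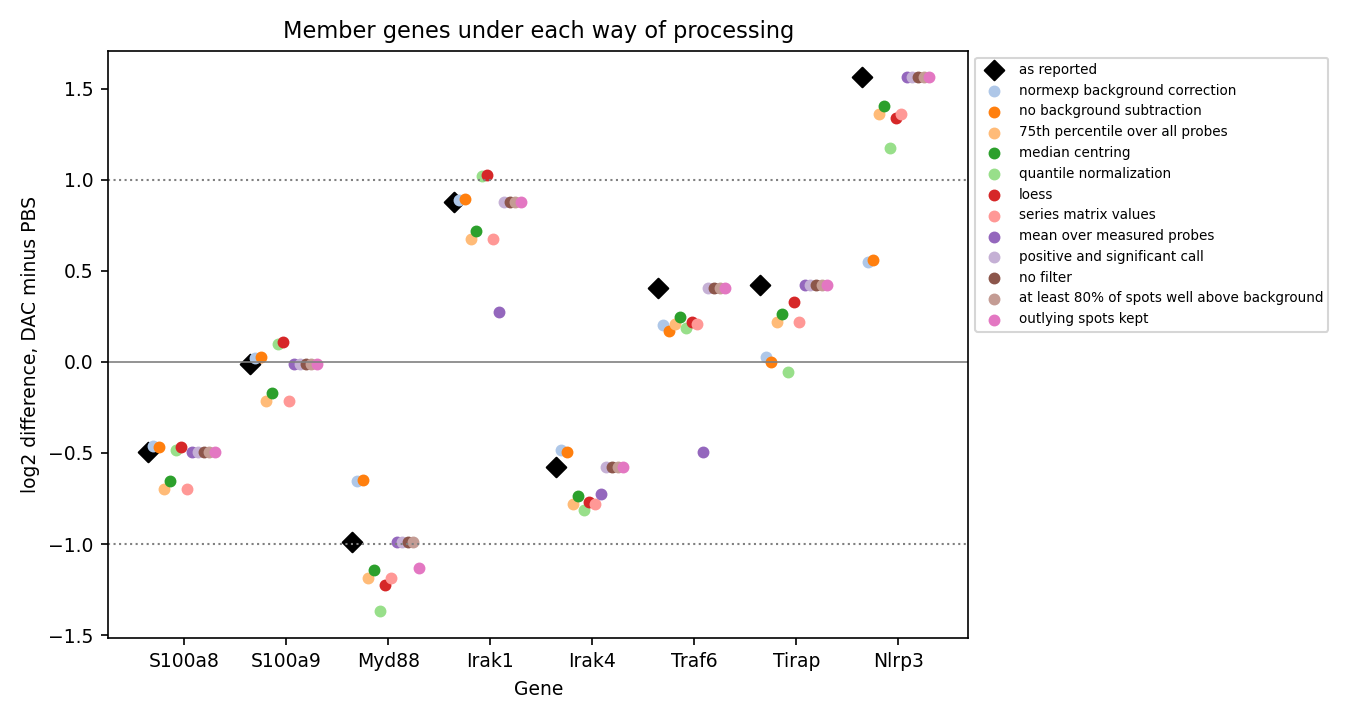
Log2 difference, DAC minus PBS, of the 8 genes measured on both arrays as reported (black diamonds) and under 12 other ways of processing (coloured points), with dotted lines at 2-fold. S100a8, Myd88 and Irak4 stay under 0 and Irak1 and Nlrp3 above 0 at every point, while S100a9, Traf6 and Tirap have points on both sides.

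The promoters of the 10 genes were set side by side, since decitabine lowers DNA methylation. RefSeq windows on GRCm38.p6, of 250 bases before to 50 after an annotated start, were found for 9 of the 10 genes, all but Tlr4. The median number of CG dinucleotides over 32851 such windows was 7. The S100a9 window held 2, the S100a8 window 4 and the 2 Nlrp3 windows 5 and 4, all below that median. Tlr2 held 11, Myd88 13, Irak4 16, Traf6 19, each Irak1 window 22, and the Tirap windows 22 and 29. CG-poor windows thus belonged to genes that were lower (S100a8), near 0 (S100a9) and higher (Nlrp3) in DAC cells. Methylation was not measured in these samples.

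The letters TATAAA, searched on both strands, were found on the strand of the gene in S100a8, S100a9 and Myd88, and in 8.32% of all windows. They began at position -30 from the annotated start in S100a8, at position 1 in S100a9 and at position -160 in Myd88. The S100a8 stretch holds the 50 bases before the start in the window chr3:90668821-90669120 (plus strand). The S100a9 stretch holds 30 bases around the start in the window chr3:90695672-90695971 (minus strand), and the capitals mark the motif.
S100a8 promoter: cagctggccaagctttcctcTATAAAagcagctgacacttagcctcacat
S100a9 promoter: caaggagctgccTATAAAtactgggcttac

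The rest of the pathway was read through 8 lists of 116 genes around these 10. Of the 116, 76 were measured on both arrays, with 9 higher in DAC cells by 2-fold or more (11.8%) and 5 lower by as much (6.58%). These shares are near the 10.0% and 6.84% of all measured genes. The median log2 difference of the 76 was 0.06, 19 of the 116 were on the DAC array only (16.4%, against 9.43% of all genes), 2 on the PBS array only (1.72%, against 2.81%) and 19 on neither.

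Among other Toll-like receptors, 4 of 10 were measured and all lay within 2-fold. Tlr3, which senses double-stranded RNA, was on the PBS array only and at least 5.01-fold lower in DAC cells. Among receptor partners and other adaptors, 10 of 14 were measured. Ly96, the MD-2 subunit that TLR4 needs to bind lipopolysaccharide, had a log2 difference of -1.35. Cd33, a sialic acid-binding receptor that binds S100A9 in humans, had 1.33, and Ticam1, the TRIF adaptor of TLR3 and TLR4, had 1.01. Cd180, a TLR4-like receptor of B cells, was detected in DAC cells alone and was at least 4.56-fold higher there.

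Among downstream kinases and ubiquitin enzymes, 14 of 18 were measured. By brightest probe, only Tab2, an adaptor of the TAK1 kinase, was at least 2-fold apart, at 1.75. Dimmer probes of Irak2 and Map3k7 also passed 2-fold. The 2 Irak2 probes read -0.14, the brighter, and -2.23, and the 2 Map3k7 probes -0.08, the brighter, and 1.30. The Pellino ligase gene Peli2 and the IκB kinase gene Ikbkb were detected in DAC cells alone, with bounds of at least 4.34-fold and 2.61-fold. Of NF-κB subunits, inhibitors and target cytokines, 12 of 17 were measured. The IκB-epsilon gene Nfkbie had a log2 difference of 2.02 and the transcription factor gene Irf5 1.99, while the IκB-zeta gene Nfkbiz had -1.08. The scaled PBS signal of Nfkbie, -4.22, lay near the lowest PBS signal called well above background, -4.93. The Nfkbie difference was not read under other background corrections. The interferon regulator gene Irf7 was detected in DAC cells alone, with a bound of at least 9.33-fold. Of the target cytokine genes, Tnf and Il1a were detected in DAC cells alone, with bounds of at least 1.65-fold and 1.18-fold. Cxcl2 (-0.22) and Ccl4 (-0.06) were measured on both arrays and lay within 2-fold, and Il6 and Il1b were on neither array.

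Among negative regulators, 10 of 12 were measured. By brightest probe, only Tollip, an inhibitor of IRAK1, was at least 2-fold apart, at 1.70, with its 3 probes between 0.36 and 1.70. The 2 Cyld probes went in opposite directions, the brighter at -0.53 and the other at 2.19. Tifab, an inhibitor of TRAF6 signalling, was detected in DAC cells alone, with a bound of at least 2.36-fold. Of 24 inflammasome genes, 15 were measured, with 3 higher and 2 lower by 2-fold or more. The cytosolic DNA sensor gene Aim2 had a log2 difference of 2.69, the peptidoglycan sensor gene Nod1 1.17 and the inflammatory caspase gene Casp4 1.03. The scaled PBS signal of Aim2, -4.07, lay near the lowest PBS signal called well above background, -4.93. The Aim2 difference was not read under other background corrections. The sensor gene Nlrc4 had -1.06 and Gsdmd, which encodes the pore-forming gasdermin D, -1.02. Mefv, the pyrin gene, and Il18 were detected in DAC cells alone, with bounds of at least 3.43-fold and 2.89-fold. The NLRP3 partners Pycard (-0.27), Casp1 (0.34) and Nek7 (0.35) lay within 2-fold.

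Of 7 genes of the interleukin 1 receptor family, 3 were measured and none of these was at least 2-fold apart. Il1rl1, Il1r2 and Il1rap were detected in DAC cells alone, with bounds of at least 1.64-fold, 1.10-fold and 1.09-fold, and 1 was on neither array. Of 14 other S100 genes, 8 were measured, with a median log2 difference of -0.41, 6 negative and 2 positive. S100a1 was at least 2-fold lower in DAC cells, at -1.01, and its probes ranged from -1.01 to -0.57. S100a7a was detected in DAC cells alone, with a bound of at least 8.18-fold.

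**Figure D5:**
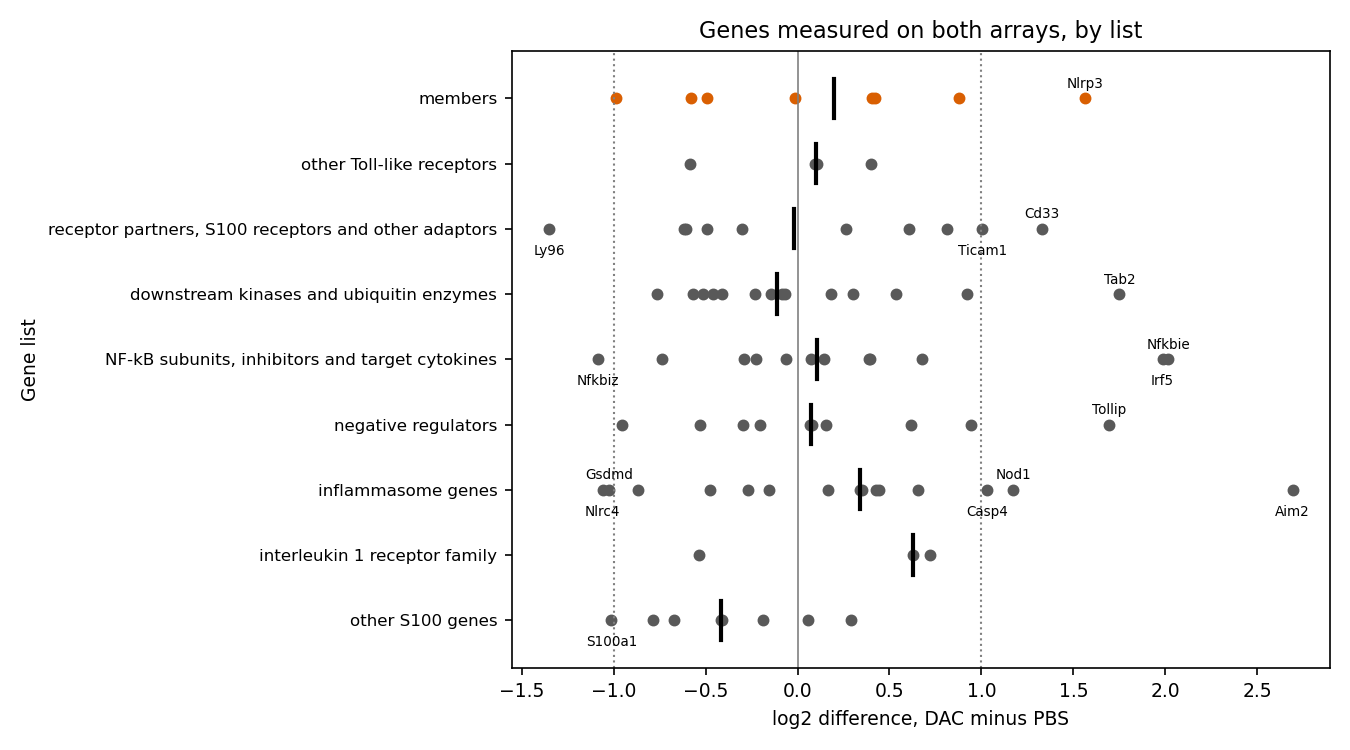
Log2 difference, DAC minus PBS, of each gene measured on both arrays, for the genes described (orange) and the 8 pathway lists (grey), with list medians as black bars and dotted lines at 2-fold. Genes at least 2-fold apart are named; Aim2 (2.69) lies farthest right and Ly96 (-1.35) farthest left, and the list medians run from -0.41 to 0.63.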

How the data were processed

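Each array held 1 Cy3-labelled RNA sample. Per the file headers, the deposited intensity values came from Agilent Feature Extraction 10.7.3.1 with probe positions on mm9, both arrays lay on 1 slide, and the processed intensity was background-subtracted but not normalized between arrays. The scanner software's flags, deposited as other codes, mark control, outlying, saturated and well-above-background spots. The authors' deposited series matrix holds log2 values whose columns have a median of 0. Its difference between arrays had a slope of 1.00 and an offset of -0.60 against the scanner values of 55680 probes, so its scale and direction were settled. The baseline of each probe is unknown, and it served only as an alternative.

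Processed intensities were log2-transformed, outlying spots were left out and the spots of a probe were averaged. A probe passed the background call where 50% or more of its spots had the flag. The 75th percentile over the 25404 probes passing on both arrays (45.6% of all) was subtracted from each array. The brightest probe by mean signal stood for a gene, which counted as measured where that probe passed on both arrays. A gene above background on 1 array only was given a lower bound against the lowest passing signal of the other array, or the signal of its own probe where that was higher. Names of genes were taken from the files and RefSeq tables of GRCm38.p6, whose coordinates were used for promoters only.

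All probes of the 10 genes are named, and of the listed pathway genes those at least 2-fold apart on both arrays. Of those on 1 array only, at most 4 a list and direction with a bound of at least 2-fold are named. Kit, Ly6a, Slamf1, Pycard, Casp1, Nek7, Il6, Il1b and the cell markers were named after their values were seen. So were Irak2, Map3k7, Cyld, Tnf, Il1a, Cxcl2, Ccl4, Il1r2, Il1rap and Il1rl1. The genes and lists were chosen with earlier results of these data known. No difference was tested, because each group had 1 array, and the number of arrays limits the precision. The alternatives changed the background correction, the scaling, the probe summary, the filter on dim probes and, added after seeing the data, the share of spots required and the outlying spots. Python 3.11.15 with pandas 2.3.3 and R 4.3.3 with limma 3.58.1 were used, and the counting was tested on simulated data. The exon or UTR that each probe lies in is not given in the sources used here.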

Additional observations from a re-analysis of the deposited data

How the results depend on the processing

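As reported, 1 of the 10 genes was at least 2-fold higher in DAC cells and 0 were at least 2-fold lower. Of all measured genes, 10.0% were higher and 6.84% lower by as much, and these shares also moved with the setting. With normexp background correction and with no background subtraction, 0 were higher, as Nlrp3 fell within 2-fold. Of all genes, 4.01% were higher and 4.15% lower with normexp, and 3.98% and 4.05% with no subtraction. With quantile normalization and with loess, 2 were higher, Irak1 being added, and 1 was lower. Of all genes, 7.39% were higher and 10.0% lower with quantile normalization, and 8.19% and 8.44% with loess. Without a filter, and also under the positive and significant call, 3 were higher, because Tlr2 and Tlr4 then counted as measured. Of all genes, 15.4% were higher and 8.73% lower without a filter, and 14.4% and 8.64% under that call. The 1 lower gene was Myd88. It passed 2-fold under the 75th percentile over all probes, median centring, quantile normalization, loess and the series matrix values. It also did so with outlying spots kept, a setting added after seeing the data. Of all genes, 10.2% were lower under that percentile, 9.31% with median centring, 10.1% with the series matrix and 6.84% with outlying spots kept. The mean over measured probes and, added after seeing the data, a limit of at least 80% of spots left both counts unchanged. Of all genes, 9.71% were higher and 6.0% lower with that mean, and 10.0% and 6.84% with that limit.

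The median log2 difference of all genes was 0.02 as reported and between -0.18 and 0.06 under the 12 alternatives. Of all genes at least 2-fold apart, 59.4% were higher in DAC cells as reported, against 41.8% to 63.8% otherwise. The median over those of the 10 genes that were measured ran from -0.25 with the mean over measured probes to 0.42 with no filter. Where a call changed, the cause was not tested beyond the change of setting itself.

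No paired analysis was possible because each group had 1 array, and leaving out an array was not run for the same reason. The pathway and marker lists were read only as reported and not under the alternatives. Signal over background limits the probes of Tlr2 and Tlr4, the Nlrp3 probe at 3543 and the Traf6 probe at 1864, whose PBS readings lay under the lowest intensity called well above background.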
